A study of Mus musculus with 2 samples.

Results

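In the scATAC-seq data of sham and stroke mouse brains, 622 of 10329 nuclei were taken as interneuron nuclei of the Lhx6 lineage, chosen by their fragments at 7 marker loci, with 350 of 5949 nuclei in the sham library and 272 of 4380 in the stroke library. Single-cell ATAC sequencing reads where a transposase, Tn5, can cut the DNA of a nucleus, and a barcode tells which nucleus a fragment came from. The nuclei came from young adult male wild-type C57BL/6J mice aged 8 to 12 weeks. Stroke was middle cerebral artery occlusion for 1 h with a filament, followed by reperfusion (MCAO/R), and the tissue was taken at 48 h. Sham mice had the filament inserted without sustained occlusion. The sham library pooled the brains of 4 mice, and the stroke library pooled the hemispheres on the side of the occlusion from 4 mice. Each condition was therefore 1 library with no replicate, so every difference is given as a size, with no p-value. Condition, the part of the brain taken and library cannot be told apart. All intervals are exact 95% intervals (Poisson for levels, binomial for shares, conditional binomial for ratios) and cover counting error only.

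The markers were Lhx6, Crhbp, Gjd2, Kcnmb2, Nxph1, Sst and Pvalb. For each barcode called as a cell, with 1000 to 100000 fragments in peaks that made up over 20% of its fragments, the fragments over the 7 gene bodies with 2 kb upstream were counted as k. The expected number E was the barcode's fragments times the rate over all such barcodes of both libraries, which was 182.4 fragments per 1000000. A nucleus was kept where k exceeded E by at least 3 times the square root of E and k was at least 5. This rule is called the gate below, and the levels of the 7 markers in the gated nuclei follow from it and are given as a description.

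Lhx6 is a LIM homeobox transcription factor that cells of the medial ganglionic eminence, a transient region of the embryonic ventral forebrain, keep as they migrate into the cortex, hippocampus and striatum and mature into GABAergic interneurons. Most of these interneurons belong either to the parvalbumin (Pvalb) class, many of which fire fast and contact the cell bodies of their targets, or to the somatostatin (Sst) class, which mostly contact dendrites. Interneurons of the other large group come from the caudal ganglionic eminence and are marked by Adarb2 and Prox1. In chromatin data a gene's activity is read from open chromatin over the gene, so a level here is accessibility and not RNA.

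Open chromatin far from gene starts was also tallied, in 300 bp tiles more than 2 kb from any annotated gene start and outside the marker loci. Tiles on chromosomes 18 and Y were left out. The 5 tiles shown were among the 6 with the highest ratio of gated to other nuclei in both libraries, and are printed as the sites, not used by the gate, that ranked highest among tiles cut in at least 5 gated nuclei of each library. The reference sequence is that of GRCm38 (mm10), plus strand, 5′ to 3′, and capitals mark matches on either strand to the 6 motifs searched, which were TAATTA (a core bound by homeodomain proteins such as Lhx and Dlx factors), CAGATG and CAGCTG (E-boxes), TGANTCA (AP-1), ACAATG (Sox) and TATTTAT (an A/T-rich core bound by Mef2 factors). Neighbouring matches can adjoin or overlap.
Tile chr19:58424401-58424700, plus strand: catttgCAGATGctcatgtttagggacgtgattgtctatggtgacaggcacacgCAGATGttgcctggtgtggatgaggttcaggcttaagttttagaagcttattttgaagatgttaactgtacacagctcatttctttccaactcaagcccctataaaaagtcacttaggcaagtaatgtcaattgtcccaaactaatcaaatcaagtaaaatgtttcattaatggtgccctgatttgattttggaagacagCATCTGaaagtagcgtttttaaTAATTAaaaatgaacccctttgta
Tile chr16:27318001-27318300, plus strand: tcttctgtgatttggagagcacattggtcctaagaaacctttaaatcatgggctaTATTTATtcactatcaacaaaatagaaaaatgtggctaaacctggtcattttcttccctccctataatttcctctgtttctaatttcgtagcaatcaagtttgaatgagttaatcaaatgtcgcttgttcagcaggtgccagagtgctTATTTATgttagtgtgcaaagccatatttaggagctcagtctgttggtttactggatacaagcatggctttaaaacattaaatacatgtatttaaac
Tile chr12:10687801-10688100, plus strand: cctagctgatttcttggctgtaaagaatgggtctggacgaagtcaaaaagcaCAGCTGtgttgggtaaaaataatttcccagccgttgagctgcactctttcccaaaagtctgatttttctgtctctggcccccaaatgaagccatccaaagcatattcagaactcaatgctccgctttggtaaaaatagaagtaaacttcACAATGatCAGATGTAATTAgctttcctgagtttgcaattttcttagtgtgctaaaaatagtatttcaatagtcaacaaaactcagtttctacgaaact
Tile chr5:68373301-68373600, plus strand: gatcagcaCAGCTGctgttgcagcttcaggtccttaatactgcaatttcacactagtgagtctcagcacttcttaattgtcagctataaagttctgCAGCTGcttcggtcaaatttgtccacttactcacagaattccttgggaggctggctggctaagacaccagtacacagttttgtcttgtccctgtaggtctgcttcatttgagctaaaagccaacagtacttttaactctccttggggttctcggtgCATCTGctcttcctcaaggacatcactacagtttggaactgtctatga
Tile chr19:58424101-58424400, plus strand: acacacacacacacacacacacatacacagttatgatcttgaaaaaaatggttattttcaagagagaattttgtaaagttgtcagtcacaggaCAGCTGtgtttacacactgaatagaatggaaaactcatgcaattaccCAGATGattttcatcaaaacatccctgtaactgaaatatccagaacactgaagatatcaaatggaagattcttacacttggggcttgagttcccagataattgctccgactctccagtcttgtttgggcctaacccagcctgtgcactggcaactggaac

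The first and last of these tiles adjoined each other in an intron of Gfra1, which encodes a co-receptor for glial cell line-derived neurotrophic factor, 31.4 and 31.7 kb from its nearest start. The tile at chr19:58424401-58424700 held a cut site in 10 of 350 gated sham nuclei (2.86%, 1.38 to 5.19) and in 6 other sham nuclei (0.107%, 0.0393 to 0.233). In the stroke library it was cut in 7 gated nuclei (2.57%, 1.04 to 5.23) and in 3 others (0.0730%, 0.0151 to 0.213). The ratio of shares was 26.7 in sham and 35.2 in stroke, so the tile was rare everywhere and far more frequent inside the gate in both libraries. The adjoining tile was cut in 17 gated sham nuclei (4.86%) and 12 gated stroke nuclei (4.41%), with ratios of 20.9 and 16.5.

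The tile at chr16:27318001-27318300 lay in an intron of Ostn, which encodes the secreted peptide osteocrin, and overlapped an exon of the gene model Gm32312. It was cut in 16 gated sham nuclei (4.57%) and 5 gated stroke nuclei (1.84%), with ratios of 23.3 and 18.9. The tile at chr5:68373301-68373600 was intergenic, 341.6 kb from the nearest start of a protein-coding gene (Grxcr1). It was cut in 21 gated nuclei in sham (6%) and 10 in stroke (3.68%). Its ratios were 17.7 and 25.2. The intergenic tile at chr12:10687801-10688100, 297.2 kb from the start of Rdh14, was cut in 7 gated sham nuclei and 5 gated stroke nuclei, with ratios of 18.7 and 25.2. In it an E-box directly adjoined a TAATTA core. The remaining tile of the 6 overlapped an exon of 4930503E14Rik on chromosome 14, with ratios of 19.996 and 18.1 from 5 and 6 gated nuclei. These ranks used the values shown, so the ratios describe the tiles chosen.

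The libraries held 103023027 (sham) and 127304829 (stroke) read pairs, and 6979 and 8740 barcodes were called as cells. The gated share was 5.88% (5.30 to 6.51) in sham and 6.21% (5.51 to 6.97) in stroke, a ratio of 1.06 (0.898 to 1.24), so no difference in share was detectable beyond counting error. No barcode was gated in both libraries, and 34 barcode sequences were shared among all nuclei. Gated nuclei had medians of 11747 and 12488.5 fragments against 11513 and 11133 for the other nuclei. Their median percent of fragments in peaks was lower, at 31.6% and 30.1% against 39.7% and 34.0%.

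This last difference moved with the gate throughout. Of the sham nuclei in the quintile with the lowest percent in peaks 14.5% were gated, against 1.93% in the highest quintile, and the stroke shares were 10.7% and 2.40%. Among nuclei outside the gate, the summed level of the 7 markers was also higher in the lowest quintile (179 fragments per 1000000 in sham and 190 in stroke) than in the highest (110 and 125). The part of this difference in the results was not tested except by weighting the other nuclei to the same percent in peaks. The weighted values are given for sham with the summed levels below and for the gene counts at the end.

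At the edge of the gate, 20 sham and 30 stroke nuclei lay just inside, with k from 5 to 12 and median scores of 3.15 and 3.10, where the score is the excess of k over E divided by the square root of E. Another 41 and 21 nuclei with k of 5 or more fell just short, with median scores of 2.88 and 2.84, and 17 and 15 passed the score with k under 5. The gated nuclei had a median k of 10 and 9 against a median E of 2.14 and 2.28, and the highest k of a single nucleus was 86 in sham and 33 in stroke.

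Levels are given as CPM, the fragments over a gene's body and 2 kb upstream per 1000000 fragments of the nuclei summed. Lhx6 (chr2:36081953-36105408) had 58.5 CPM (51.6 to 66.0) in gated sham nuclei and 50.7 (43.5 to 58.7) in gated stroke nuclei, against 8.80 and 9.96 in the other nuclei. A fragment at Lhx6 was found in 112 gated sham nuclei (32.0%) and 91 gated stroke nuclei (33.5%), and in 7.88% and 9.08% of the others. Most gated nuclei were therefore kept without a fragment at the gene that names the lineage.

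The long loci carried most of the gate. Kcnmb2 (chr3:31902507-32200180), an accessory subunit of large-conductance potassium channels, had 397 CPM in gated sham and 368 CPM in gated stroke nuclei. Nxph1 (chr6:8948431-9249032), which encodes the secreted neurexin ligand neurexophilin 1, had 396 and 298. Together they gave 84.6% of the marker fragments of gated sham nuclei and 83.5% of those of gated stroke nuclei. In 133 sham nuclei (38.0%) and 103 stroke nuclei (37.9%), fragments came from these loci alone.

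Pvalb (chr15:78191114-78206400), a calcium buffer of fast-spiking cells, had 44.9 and 37.4 CPM in gated nuclei against 9.67 and 10.6 in the others. Crhbp (chr13:95431371-95444924), which binds corticotropin-releasing hormone, had 22.8 and 25.04 against 4.75 and 4.93. Gjd2 (chr2:114009601-114013619), the connexin of electrical synapses, had 13.0 and 15.8 against 4.22 and 2.72. Sst (chr16:23889573-23890958), the neuropeptide that names its class, had only 22 and 10 fragments in gated nuclei, or 4.91 and 2.88 CPM against 1.36 and 0.852. Per kilobase of locus, the sham levels in gated nuclei ran from 2.60 CPM for Pvalb and 2.30 for Lhx6 down to 1.32 for Kcnmb2 and 1.31 for Nxph1.

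To measure each marker in a gate that did not count it, the gate was rebuilt 7 times, each time without 1 marker. The marker left out was then measured. Each of the 7 was higher inside than outside in both libraries, and in 13 of 14 cases the interval of the ratio lay above 1. Lhx6 itself was 2.92-fold higher (2.42 to 3.51) in sham and 2.69-fold (2.15 to 3.34) in stroke. Crhbp was 2.82-fold (2.14 to 3.67) and 2.95-fold (2.17 to 3.96) higher. Nxph1 was 2.74-fold (2.52 to 2.97) and 2.08-fold (1.87 to 2.31) higher, and Kcnmb2 2.08-fold (1.89 to 2.27) and 2.19-fold (1.97 to 2.42).

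Gjd2 was 1.78-fold (1.23 to 2.52) and 2.34-fold (1.48 to 3.55) higher, and Pvalb 1.78-fold (1.41 to 2.22) and 1.82-fold (1.41 to 2.33). Sst was 2.63-fold (1.47 to 4.44) higher in sham. In stroke its ratio was 1.52 (0.470 to 3.80) on 5 fragments, which is within counting error of no difference. The 7 loci thus varied together across nuclei, with ratios well below those of the full gate, such as 6.65 and 5.09 for Lhx6. The markers were chosen with earlier results of these data known, so this describes the set chosen and is no independent test.

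**Figure D1:**
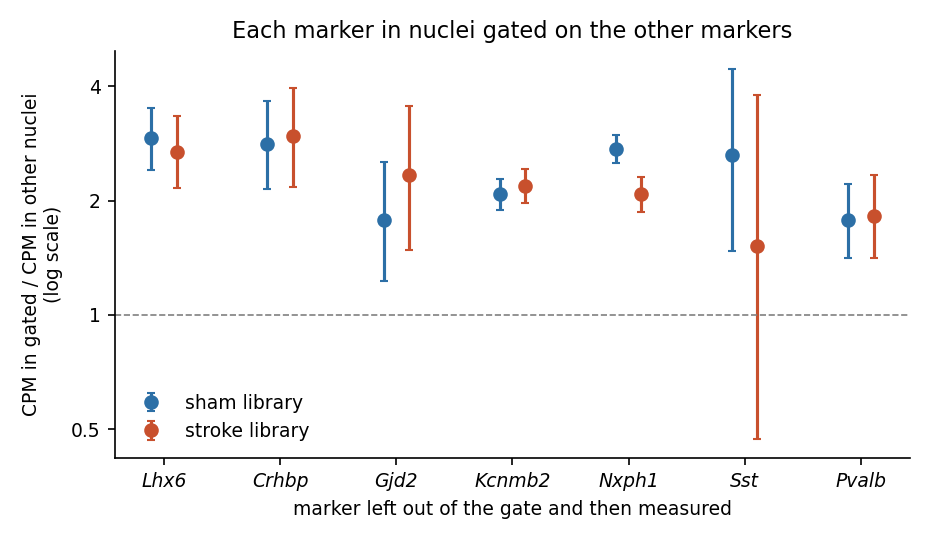
Ratio of CPM in gated over other nuclei for each marker in a gate rebuilt without it (log axis), for the sham (blue) and stroke (orange-red) libraries, with exact conditional binomial 95% intervals. Every ratio is above 1, from 1.52 to 2.95, and only the interval of Sst in stroke reaches below 1.

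Gated nuclei differed in how many of the 7 markers had a fragment. In sham, 52 nuclei had 1 marker, 129 had 2, 96 had 3 and 73 had 4 or more, and in stroke 37, 91, 87 and 57 did. No nucleus had all 7. Lists of genes outside the gate were read across these groups, without using them to form the groups.

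The medial eminence list (Nkx2-1, Sox6, Satb1, Maf and Erbb4 among its 6 genes) had summed levels of 299 CPM in other sham nuclei and 408, 502, 744 and 968 CPM in gated nuclei with 1, 2, 3 and 4 or more markers. In stroke the levels were 364 in other nuclei and 401, 537, 661 and 952. The list was higher with each further marker in both libraries, and by its level nuclei with a single marker were the closest to the rest. In stroke their interval (339 to 472) included the level of the other nuclei, and in sham it did not (357 to 463). Other lists had another order. Sham nuclei with 1 marker had the highest level of the Adarb2 class list, which stands for interneurons of the caudal eminence, with 456 CPM (403 to 515) against 225 in other nuclei and 282, 248 and 203 with 2, 3 and 4 or more. In stroke that list was highest with 2 markers, at 333 CPM, against 241 with 1 and 243 in other nuclei. The Pvalb class list in sham was at 860 CPM (787 to 939) with 1 marker and 753 with 2, against 557 in other nuclei. The Sst class list in stroke was at 501.2 CPM with 3 markers and 424 with 4 or more.

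The GABA list (Gad1, Gad2, Slc32a1 and Abat among its 5 genes) went from 233 CPM in other sham nuclei to 276, 313, 398 and 399. In stroke it went from 224 to 235, 254, 343 and 507. The excitatory neuron list ran the opposite way, from 400 CPM in other sham nuclei to 285, 260, 175 and 99.8, and in stroke from 358 to 324, 231, 206 and 144. Nuclei with 4 or more markers had the lowest excitatory sums in both libraries, and the highest GABA sum in stroke, while in sham their GABA sum equalled that with 3 markers within counting error.

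Among single genes the gradient was steep at Sox6, a transcription factor that acts after Lhx6 in this lineage. Sox6 had 86.4, 122, 218 and 347 CPM with 1, 2, 3 and 4 or more markers in sham, against 92.4 in other nuclei, and 152, 149, 222 and 342 in stroke, against 127. Gad1, which encodes the enzyme that makes most GABA, had 60.5, 95.01, 82.8 and 119 CPM in sham, against 49.0, and 33.2, 52.2, 73.7 and 155 in stroke, against 47.0. At both genes the interval of the nuclei with 1 marker included the level of the other nuclei in each library. At Erbb4 the sham nuclei with 1 marker were above the others beyond counting error, with 233 CPM (196 to 276) against 135. In stroke they were not, with 155 CPM (117 to 201) against 156. These intervals count fragments as independent, and a single gated sham nucleus, of any marker number, held up to 55 fragments at Erbb4. The spread between nuclei is thus not covered.

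Depth and the surroundings of the long loci moved with the number of markers. Nuclei with 4 or more markers were deeper, with medians of 15730 and 14020 fragments, and their percent in peaks was 31.8% and 30.9%. In nuclei with 1 marker, the 300 kb on each side of Kcnmb2 also held more fragments, with 406 CPM in sham (356 to 461) and 446 in stroke (380 to 520) against 145 and 164 in other nuclei. With 4 or more markers these flanks had 230 and 241 CPM. The excess was not particular to nuclei with 1 marker. Among nuclei with 10 or more Kcnmb2 fragments, the sham flanks had 724 CPM with 1 marker and 778 with 3 or more. The stroke flanks had 1113 and 467, and the levels over all nuclei were 156 and 175. For Nxph1 the like values were 653 and 548 in sham and 1511 and 347 in stroke, against 142 and 145. These groups held 6 to 21 nuclei each. The part of these differences in the lists' gradient was not tested.

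**Figure D2:**
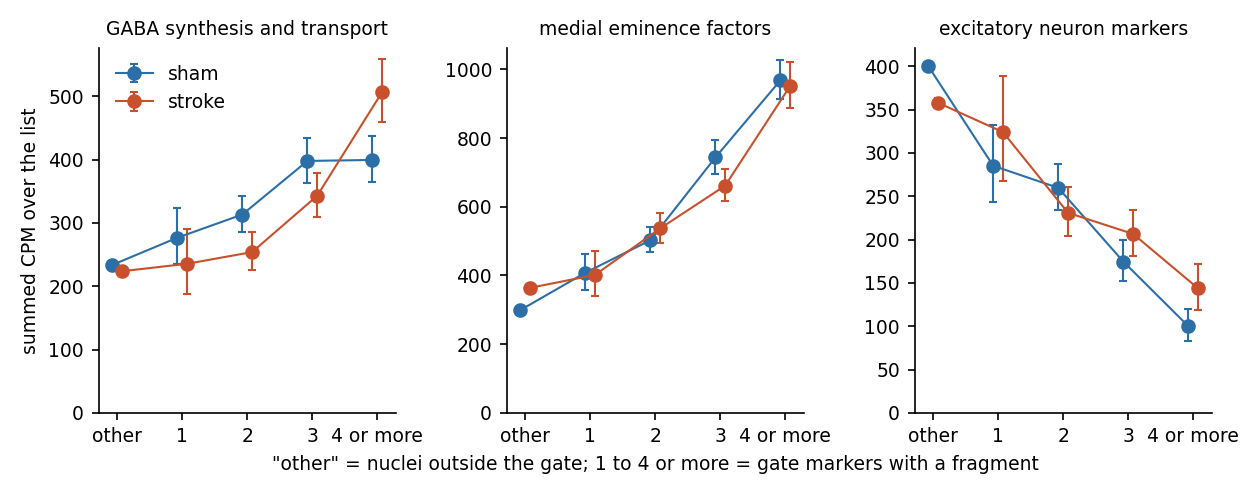
Summed CPM of the GABA, medial eminence and excitatory lists in nuclei outside the gate and in gated nuclei with 1, 2, 3 and 4 or more markers, for the sham (blue) and stroke (orange-red) libraries, with exact Poisson 95% intervals. The medial eminence list goes from 299 and 364 outside the gate to 968 and 952 with 4 or more markers, while the excitatory list goes from 400 and 358 to 99.8 and 144.

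Across all gated nuclei, 17453 protein-coding genes outside the gate had at least 20 fragments, found or expected, in the gated nuclei of both libraries and were compared with the other nuclei, where a gene was called at 1.5-fold in the same direction in both libraries. Of all genes 244 (1.4%) were higher and 194 (1.11%) lower in both. When levels were scaled to fragments in peaks instead, log2 ratios shifted by 0.25 in sham and 0.17 in stroke and the counts became 646 and 51, so the numbers of higher and lower genes depend on the scaling. Weighting by percent in peaks, asking for more markers and capping the fragments per marker also moved these counts, as given at the end. The median log2 ratio over all genes was 0.01 in sham and 0.00 in stroke.

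Of 5 genes of the GABA list, 3 were higher in both libraries. When all called barcodes were let in, only 3 genes of this list, the homeobox factors and the medial eminence list together were higher. Gad1 (chr2:70553072-70602014) had 93.4 CPM in gated and 49.0 in other sham nuclei, a ratio of 1.91 (1.72 to 2.11), and 81.5 and 47.0 in stroke, a ratio of 1.74 (1.53 to 1.96). Gad2, which encodes the synaptic form of the enzyme, had log2 ratios of 0.91 and 0.81, and Slc32a1, the vesicular GABA transporter, 0.87 and 1.09. Abat, which breaks GABA down, was close to the other nuclei (0.10 and 0.36).

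Of 5 homeobox factors that specify GABAergic neurons, 4 were higher in both. Dlx1 (chr2:71528113-71533981) had 30.2 CPM in gated and 8.86 in other sham nuclei, a log2 ratio of 1.77, and 18.1 and 9.71 CPM in stroke, a log2 ratio of 0.91. Dlx2 had log2 ratios of 1.25 and 1.09, Dlx5 1.01 and 0.89, and Dlx6 0.80 and 0.64. These Dlx genes were on the same side in both libraries.

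Of the 6 medial eminence genes, 4 were higher in both. Erbb4 (chr1:68032186-69108059), the neuregulin receptor that many Pvalb interneurons carry, had 356 CPM in gated and 135 in other sham nuclei, a ratio of 2.64 (2.50 to 2.79), and 317 and 156 in stroke, a ratio of 2.03 (1.91 to 2.17). Sox6 (chr7:115470872-116038796) had ratios of 2.19 (2.04 to 2.35) and 1.72 (1.60 to 1.86), and Maf 2.75 (2.29 to 3.27) and 1.71 (1.35 to 2.12). Satb1, which acts in the maturation of the Sst class, had log2 ratios of 0.50 and 0.60 and passed only in stroke. Nkx2-1, the factor that patterns the embryonic medial eminence and is switched off in most cortical interneurons, had only 12 and 15 fragments in gated nuclei and ratios within counting error of 1 (0.557 to 1.97 and 0.728 to 2.26).

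The summed level of the medial eminence list was 2.27-fold higher in gated than in other nuclei in sham and 1.82-fold in stroke. Erbb4 and Sox6, whose loci are long, gave most of it, and single nuclei held up to 55 fragments at Erbb4. Erbb4 was not particular to this gate. Nuclei gated on the Adarb2 class list, described below, had 262 CPM in sham and 225 in stroke, against 135 and 156 in nuclei outside the Lhx6 gate. When at most 2 fragments of a gene were counted per nucleus, the ratios were 1.52 and 1.36. Weighted to the gated nuclei's percent in peaks, the sham ratio was 2.03, and the stroke value is not reported here. Called barcodes that failed the filter and did not meet the gate had 488 CPM in sham and 670 in stroke. Gated nuclei had 679 and 662, so in stroke the list's level did not set them apart from those barcodes.

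Genes of the classes within the lineage were read next. Of 11 genes of the Pvalb class, 3 were higher in both libraries. They were Kcnc2, a Kv3 potassium channel subunit that allows fast spiking (98.9 against 41.7 CPM in sham and 89.8 against 40.7 in stroke), Btbd11 (log2 ratios of 1.19 and 1.06) and Tmem132c (0.80 and 1.19). Cox6a2, a subunit of cytochrome c oxidase, had 1.63 in sham and 0.16 in stroke. Of 9 genes of the Sst class, 2 were higher, both of them neuropeptides. Npy had 11.2 against 3.20 CPM in sham (50 fragments) and 10.9 against 3.64 in stroke (38 fragments), and Cort had log2 ratios of 0.99 and 1.17.

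Markers of other cells gave the following. Of the 7 excitatory genes 3 were lower in both libraries, Neurod6 (log2 ratios of -1.61 and -0.85) and Sv2b (-1.21 and -0.93) among them, and all 7 were below the other nuclei in each library. Slc17a7, the vesicular glutamate transporter of cortical neurons, had 28.6 CPM in gated and 56.2 in other sham nuclei, and 27.9 and 41.1 in stroke. The excitatory markers were thus lower in gated nuclei, and none was at 0. Of 8 genes compared for the Adarb2 class, Htr3a was higher (0.67 and 0.66) and Lamp5 lower (-0.75 and -0.98). Of 8 astrocyte genes only Slc1a2 was lower (-0.65 and -0.73), and of 10 myeloid genes only C1qa was higher, on 17 and 22 fragments. No gene of the striatal projection, oligodendrocyte, oligodendrocyte precursor or vascular lists passed in both libraries.

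Of the activity and stress genes, Egr3 among 18 immediate early genes was lower (-0.70 and -0.71) and Pmaip1 among 11 cell death genes was lower on 8 and 6 fragments. Kcnc2 was the only one of 10 fast-spiking channel genes called, and no gene of the heat shock (10 genes), hypoxia (12) or perineuronal net (7) lists was. Acan, the main proteoglycan of perineuronal nets, had a log2 ratio of 0.89 in sham and 0.31 in stroke.

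**Figure D3:**
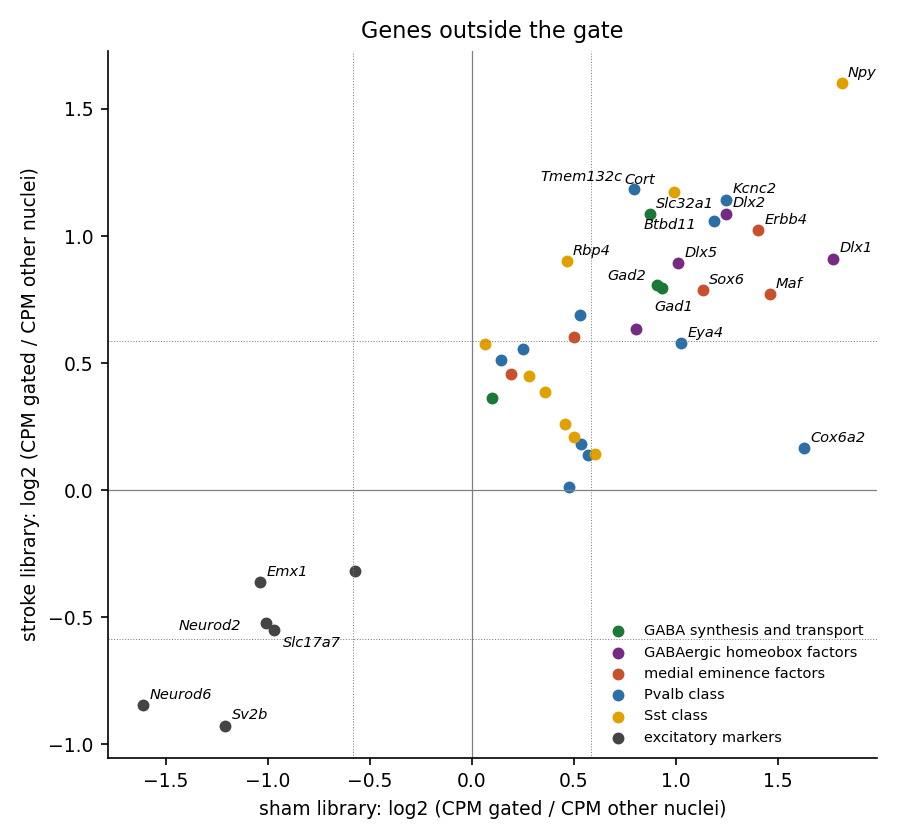
Log2 ratio of CPM in gated over other nuclei in the sham library (x axis) and the stroke library (y axis) for genes of 6 lists, some not shown, with the dotted lines at 1.5-fold in each direction. Npy, at 1.81 and 1.60, is the farthest point in the upper right, and the excitatory genes plotted (dark grey) lie in the lower left.

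The 20 genes with the highest ratio in the lower of both libraries, among those with at least 50 fragments in gated nuclei, included 6 genes of the lists above, which were Npy, Kcnc2, Dlx2, Btbd11, Erbb4 and Cort. Fam240b had the highest value, with 7.59 against 1.83 CPM in sham (log2 2.07) and 10.1 against 2.20 in stroke (2.21), and its fragments came from 21 and 31 nuclei. Next to Npy followed Klrb1c (1.46 and 1.51), Minar1 (1.35 and 1.27), Srpx2 (1.19 and 1.69), Adamts15, a metalloprotease that cleaves proteoglycans (1.18 and 1.18), Lrrc38, an auxiliary subunit of large-conductance potassium channels (1.55 and 1.16), and Gm33543 (1.22 and 1.14). Thbs2, a thrombospondin gene, had 1.37 and 1.09 and the homeobox gene Nkx6-3 1.10 and 1.07. Ch25h (2.09 and 1.05), Syde1 (1.04 and 1.33), 4930503E14Rik, whose family of near-identical copies makes its count uncertain (1.04 and 1.17), Lrit3 (1.03 and 1.03) and Ifit3 (1.11 and 1.02) completed the list. Of these, Syde1, with 12 of its 38 stroke fragments in a single nucleus, was at -0.73 in the lower library when nuclei were thinned to 5000 fragments and at -0.10 with at most 3 fragments counted per marker, and Lrit3 (-1.70) and Ifit3 (-0.94) reversed in 1 kb around gene starts. Apart from Kcnc2, Btbd11 and Erbb4, each rested on at most 104 fragments in a library. Single sham nuclei also held 10 of 32 fragments at Klrb1c, which came from 13 nuclei, and 18 of 102 at Minar1. Single stroke nuclei held 19 of 82 at Thbs2 and 16 of 77 at Adamts15.

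Distal open chromatin was compared over 29401 tiles with a cut site in at least 5 gated nuclei of each library. Since this minimum was set on gated nuclei alone, rare tiles entered only where gated nuclei were cut, and the ranks and the shares of motifs describe the tiles that entered. Among the 500 highest tiles, CAGCTG was found in 47.0% against 28.2% of all 29401 tiles, CAGATG in 37.0% against 29.6% and TAATTA in 13.8% against 6.67%. TGANTCA was in 18.4% against 16.1%, TATTTAT in 7.40% against 5.69% and ACAATG in 11.2% against 11.9%. In percentage points, the E-boxes and the homeodomain core thus had the wider gap, while by ratio TATTTAT was ahead of CAGATG. GC content also differed, with means of 45.3% in the 500 and 50.3% in all, and its part in the motif shares was not tested. By nearest start of a protein-coding gene, Cdh13 had 5 of the 500 tiles and Maf 4, and 12 genes, Gjd2, Elavl2 and Fgf12 among them, had 3 each.

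Because these ranks used both libraries, the tiles were also ranked in 1 library and measured in the other. For the 500 tiles ranked highest in sham, the share of gated stroke nuclei cut, summed over the tiles, was 3.07 times that of other stroke nuclei, against 1.05 for all 91578 tiles considered. Of the 500, 297 were higher in gated stroke nuclei, and 199 had no gated stroke nucleus. For the 500 ranked in stroke, the sham ratio was 3.58, against 0.933 for all 51610, with 352 higher and 118 without a gated sham nucleus. The tiles chosen in each library were therefore more open in the gated nuclei of the other, but by much less than in the library that ranked them, where the lowest ratio was 15.997 for sham and 12.6 for stroke.

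By number of markers, the tiles ranked in sham had 92.5 cut sites per 1000000 fragments in other stroke nuclei and 111, 162, 287 and 477 in gated stroke nuclei with 1, 2, 3 and 4 or more. The tiles ranked in stroke had 135 in other sham nuclei and 214, 314, 506 and 756. The order is that of the medial eminence list, and not of every list. The tiles lay outside the marker loci, but tiles near those loci, and tiles inside or near other genes of the lists, were not left out. In stroke the interval for nuclei with 1 marker (79.1 to 151) included the level outside the gate, and in sham it did not (178 to 256).

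**Figure D4:**
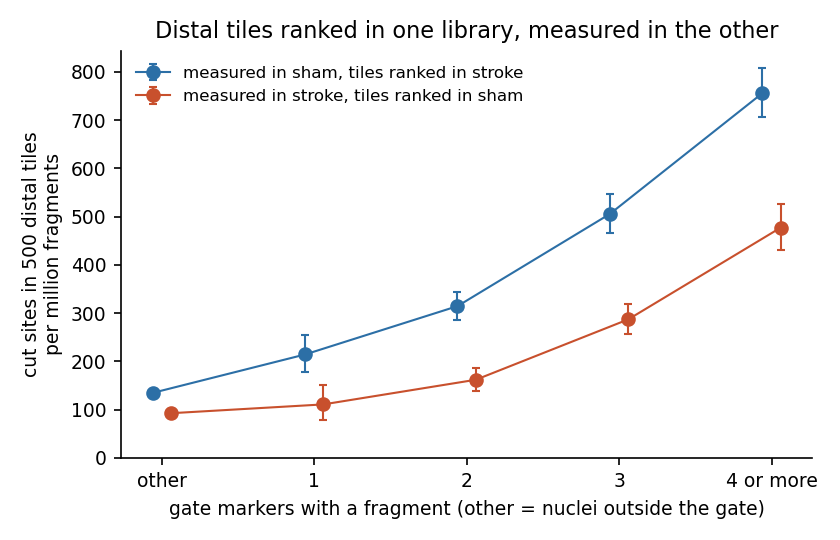
Tn5 cut sites per 1000000 fragments in 500 distal tiles ranked in the other library, by number of gate markers with a fragment, measured in sham (blue) and stroke (orange-red) nuclei, with exact Poisson 95% intervals. Levels go from 135 and 92.5 outside the gate to 756 and 477 in nuclei with 4 or more markers.

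Gates built in the same way on other lists showed which cell types the barcodes could also hold. The Adarb2 gate, for interneurons of the caudal eminence, shared 38 sham and 28 stroke nuclei with the Lhx6 gate. This was 10.9% and 10.3% of the Lhx6-gated nuclei and 10.95% and 11.6% of the Adarb2 gate, against 5.52% and 5.19% of the nuclei outside the Lhx6 gate. The excitatory gate held 2.29% and 1.10% of the Lhx6-gated nuclei and 8.50% and 6.57% of the nuclei outside. The myeloid gate held 5.71% and 7.72% of the Lhx6-gated nuclei, against 4.97% and 5.82% outside, and the gate for oligodendrocyte precursors 3.71% and 5.88%, against 3.46% and 4.21%. The GABAergic gate held 18.9% and 16.5% of the Lhx6-gated nuclei, against 8.93% and 7.04% outside. The oligodendrocyte gate held 1.43% of the Lhx6-gated sham nuclei and 4.78% of the Lhx6-gated stroke nuclei, against 3.43% and 3.38% outside. In all, 68 sham (19.4%) and 66 stroke nuclei (24.3%) also passed a gate for cells that are not GABAergic, against 27.1% and 32.2% of the others, and no doublet caller was run.

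With the shared nuclei removed, 312 and 244 Lhx6-gated nuclei were set beside 309 and 213 Adarb2-gated nuclei, over 17064 genes. Of all genes 1.12% were higher and 1.14% lower in the Lhx6 gate in both libraries. Sox6 and Satb1, 2 of the 6 medial eminence genes, were higher in both. Sox6 had 212 against 108 CPM in sham, a ratio of 1.97 (1.75 to 2.22), and 232 against 134 in stroke (1.74, 1.53 to 1.97). Satb1 had 68.7 against 36.6 CPM (1.88, 1.53 to 2.32) and 71.6 against 39.7 (1.80, 1.43 to 2.28).

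Of the 11 Pvalb class genes, 4 were higher in both, namely Eya4 (log2 ratios of 1.29 and 0.63), Tmem132c (0.81 and 1.46), Kcnc2 (0.91 and 0.96) and Cox6a2 (1.63 and 0.61). In stroke Cox6a2 had only 12 and 7 fragments, and the interval of its ratio (0.569 to 4.70) included 1. None of the 5 GABA genes, 5 homeobox factors or 9 Sst class genes was called. Gad1, for one, had 89.0 against 81.6 CPM in sham and 82.7 against 70.3 in stroke, with intervals of the ratio that included 1. Of the 2 Adarb2 class genes that the Adarb2 gate did not use, Nr2f2 and Cnr1, neither was called. The gates differed at some genes of the medial eminence and Pvalb class lists, while no shared GABAergic gene was separated by 1.5-fold in both libraries. Erbb4 (ratios of 1.31 and 1.39) and Btbd11 (1.17 and 1.499) were not called. In Adarb2-gated nuclei Erbb4 had 262 and 225 CPM and Btbd11 190 and 142. In 1 library each, Dlx1 was at a ratio of 1.74 in sham (1.30 to 2.36) and Dlx2 at 1.90 in stroke (1.10 to 3.45). Of the Sst class genes, Cort was at 3.23 in stroke (1.44 to 9.27, on 26 and 7 fragments) and Npy at 2.18 (1.16 to 4.48). Their sham intervals included 1.

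Within the Lhx6 gate, 24 nuclei had a fragment at Sst and none at Pvalb (17 sham and 7 stroke), and 148 had a fragment at Pvalb and none at Sst (86 and 62). Another 3 sham and 1 stroke nuclei had both. The libraries were summed here because of the small numbers. Of 9340 genes compared, 14.5% were higher and 17.8% lower by 1.5-fold in Sst-positive nuclei, so single genes are weak evidence at this depth, and the classes were read as lists.

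Of the 4 Sst class genes with enough fragments, 3 were higher in Sst-positive nuclei and none lower. Nos1, the neuronal nitric oxide synthase of long-range Sst cells, had 291 against 83.2 CPM, a ratio of 3.50 (2.70 to 4.50). Grin3a, an NMDA receptor subunit, had 168 against 64.6 (2.61, 1.87 to 3.56), and Elfn1, a synaptic adhesion protein of Sst cells, 138 against 56.9 (2.44, 1.69 to 3.43). Reln was close in both, at 156 and 135 CPM. The most fragments of a single nucleus were 24 at Nos1, 20 at Grin3a and 13 at Elfn1. Npy had 8 and 21 fragments, or 23.5 and 10.0 CPM, which is within counting error, and so is Cort, which pointed the other way with 2 and 28 fragments, or 5.88 and 13.4 CPM.

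Of the 8 Pvalb class genes compared, 5 were lower in Sst-positive nuclei and none higher. Eya4, a transcriptional co-factor, had 29.4 against 98.1 CPM (ratio 0.314, 0.142 to 0.562), Ppargc1a, a regulator of mitochondrial genes, 26.5 against 57.4 (0.484, 0.206 to 0.904), and Kcnc1, another Kv3 subunit, 79.4 against 133 (0.607, 0.386 to 0.887). Scn1a and Tmem132c were lower with log2 ratios of -0.72 and -0.61, and Tmem132c was lower only in stroke nuclei (-2.32, against -0.06 in sham). Cox6a2 had no fragment in Sst-positive nuclei and 26 in Pvalb-positive ones, and Pthlh none and 19. A limit of 3 fragments is 8.82 CPM here, against 12.4 and 9.09 CPM in Pvalb-positive nuclei, and the interval of the ratio reached 0.937 for Cox6a2 and 1.32 for Pthlh, so Pthlh was within counting error.

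Summed, the Sst class list had 808 CPM in Sst-positive and 379 in Pvalb-positive nuclei, a ratio of 2.13 (1.85 to 2.45), and the Pvalb class list 747 and 1097, a ratio of 0.681 (0.596 to 0.775). With at most 2 fragments of a gene counted per nucleus the ratios were 1.69 and 0.872. The GABA list had 400 and 379 CPM, with a ratio within counting error of 1 (0.872 to 1.27). Within it Gad2 had a ratio of 1.58 (0.948 to 2.45) and Abat 0.663 (0.433 to 0.954). By summed fragments the subsets thus differed in the genes of each class, which the split did not use, and not detectably in the GABA genes. These intervals count fragments as independent, so the spread between the few nuclei is not covered. With the cap the Pvalb class gap was small. The homeobox list was 1.57-fold higher in Sst-positive nuclei (1.10 to 2.20). The medial eminence list was lower, at 0.834 (0.724 to 0.957), with Erbb4 at 238 against 413 CPM and Satb1 at 109 against 68.4.

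Fast-spiking channel genes had a summed ratio of 0.778 (0.694 to 0.870). Of the 10, 3 were lower, Kcnc1 and Scn1a among them, and 2 were higher, against 17.8% lower and 14.5% higher over all genes. Kcnc1, Kcnc2 and Scn1a are on the Pvalb class list too, so these lists overlap. The perineuronal net list was at 0.967 (0.816 to 1.14), with 2 of 6 genes lower. These were Bcan, the proteoglycan brevican, at 11.8 against 49.3 CPM, and Acan at 17.6 against 38.3, the latter on 6 fragments and within counting error (ratio 0.496, 0.164 to 1.05).

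Among all genes with at least 60 fragments, some of the highest rested on single nuclei. The 10 highest in Sst-positive nuclei were Gm45861, Gnpat, Clybl, AB124611, Triqk, Pdlim1, Tspan33, Cfap57, Nhs and Wdr48, with log2 ratios from 3.20 to 2.07. Of these Gm45861, Gnpat, Clybl, Triqk, Pdlim1 and Wdr48 turned negative when at least 2 fragments were asked for at Sst or Pvalb (from -0.10 to -1.91), and AB124611 (-0.22) when mixed barcodes were left out. Gm45861 was at -0.47 in stroke nuclei and Pdlim1 at -1.58 in sham nuclei. At Gm45861 a single nucleus held 40 of the fragments, at Clybl 85, at Nhs 60 and at Pdlim1 28. The 10 lowest were Tex33, Gde1, Fgd1, Asb5, Dhrs3, Arfip2, Gm49322, Mfng, Tpd52l2 and S100a3, each with 0 or 1 fragment in Sst-positive nuclei. Their fragments came from 28 to 63 Pvalb-positive nuclei, with at most 12 in a single nucleus. Tex33 had 86 fragments in Pvalb-positive nuclei and none in Sst-positive ones. A count of 3 in place of none would put it 4.67-fold lower. The interval of its ratio reached 0.269, which is a smaller difference. Tex33 (chr15:78378400-78395912) and Mfng (chr15:78755882-78773475) lie on the chromosome of Pvalb and close to it, and the split used fragments at Pvalb.

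**Figure D5:**
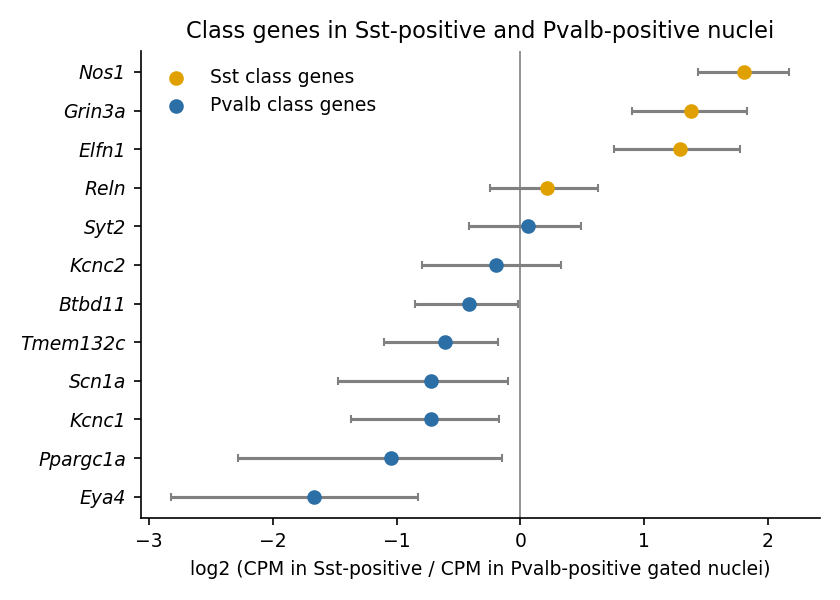
Log2 ratio of CPM in the 24 Sst-positive over the 148 Pvalb-positive gated nuclei for the Sst class genes (yellow) and Pvalb class genes (blue) with enough fragments, with exact conditional binomial 95% intervals. Nos1 (1.81), Grin3a (1.38) and Elfn1 (1.29) lie to the right of 0 and Eya4 (-1.67) and Ppargc1a (-1.05) farthest to the left.

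Between stroke and sham, 15967 genes had at least 40 fragments in gated nuclei. Of these 766 (4.8%) were at least 1.5-fold higher in stroke and 795 (4.98%) lower, and with levels scaled to fragments in peaks the counts were 1356 and 366. Over all called barcodes they were 1538 and 6559, and in 1 kb around gene starts 277 were higher. In the other nuclei, which are far more numerous and so less noisy, 2.04% of the same genes were higher and 0.157% lower. The median log2 ratio over all genes was -0.07 in gated and -0.08 in other nuclei. A list's count is therefore read against 4.8% and 4.98%. In these summed levels, more nuclei of a kind and more open chromatin per nucleus cannot be told apart.

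The gate used the markers in both libraries alike, so their levels in gated nuclei follow from it and are a description only. None of the 6 compared passed 1.5-fold. Outside the gate, none of the 5 GABA genes or 5 medial eminence genes compared passed 1.5-fold in either direction. For so few genes, none is near the 4.8% and 4.98% over all genes. Gad1 had 93.4 CPM in sham and 81.5 in stroke, a ratio of 0.873 (0.748 to 1.02), and Sox6 203 and 219, a ratio of 1.08 (0.982 to 1.19). Of the 5 homeobox factors, Dlx1 was lower in stroke, with 30.2 CPM from 135 fragments in sham and 18.1 CPM from 63 in stroke, a ratio of 0.604 (0.439 to 0.817). In the other nuclei its log2 ratio was 0.13. The median of the list was -0.31, against 0.13 in the other nuclei. All 5 were below 0, from Dlx1 at -0.73 to Dlx2 at -0.02, and 4 were below the median over all genes.

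Of 11 Pvalb class genes, 2 were lower. Cox6a2 had 10.3 CPM in sham (46 fragments) and 3.45 in stroke (12 fragments), a log2 ratio of -1.53, and Syt2, the synaptotagmin of fast release sites, 119 and 77.1 CPM (-0.62). The median of the list was -0.11. Of the 9 Sst class genes, Chodl was higher (log2 ratio 0.79, on 20 and 27 fragments, within counting error) and Cbln4 lower (-0.78). Of 8 Adarb2 class genes compared, 2 were lower, and the lowest was Nr2f2, with 21.4 and 13.2 CPM. No gene of the fast-spiking list passed, and Has3, a hyaluronan synthase, was the only one of 7 perineuronal net genes called, at 19.7 CPM in sham and 10.4 in stroke.

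Genes of ischemic stress were read as lists. Of 18 immediate early genes 2 were lower in stroke, Npas4 with 23.0 and 12.1 CPM (log2 -0.92, and -0.81 in other nuclei) and Nr4a1 with 48.7 and 30.8 CPM (-0.66, and -0.41 in other nuclei). The median of the list was -0.00. Of 9 heat shock genes compared none passed, and the median was 0.07. Of 12 hypoxia and glycolysis genes, Ldha, the lactate dehydrogenase A gene, was lower, at 29.5 and 18.7 CPM (-0.65, and -0.12 in other nuclei), and the median of the list was -0.36, against 0.01 in the other nuclei. Of 10 cell death genes, Bax, a pore-forming protein of the mitochondrial pathway, was lower (-0.63), and so was Cdkn1a (-0.60).

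Markers of glia were among the lists with the most higher genes. Of 6 oligodendrocyte genes compared, 3 were higher in stroke, namely Mog (6.92 and 14.7 CPM), Mag (4.24 and 8.64) and Mobp (13.2 and 25.3), which all encode myelin proteins. The median of the list was 0.72, against 0.15 in the other nuclei, and its summed ratio of 1.56 became 1.18 when barcodes that also passed a gate for other cells were left out. Those gates include the oligodendrocyte gate, which counts the same genes and held 5 gated sham and 13 gated stroke nuclei. A fall was thus built into this setting. Slc1a3, the glial glutamate transporter, was also higher, at 19.0 and 35.1 CPM (0.88, and 0.96 in the other nuclei), as 1 of 2 astrocyte genes of 8. Of 7 myeloid genes compared 2 were lower, with Aif1 lowest (-1.01). Of 7 striatal genes 1 was lower, of 6 vascular genes 1 higher, and no excitatory or precursor gene passed.

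Over all genes with at least 100 fragments, the 10 lowest in stroke were Pim2, Lrrc8e, Otog, Asb14, Rars, Creb3l3, Zkscan14, Iah1, Lgi2 and Hmces. The log2 ratio of Asb14 turned to 2.69 in 1 kb around gene starts, and that of Creb3l3 to 0.023 with k of at least 10 and 0.0077 when nuclei were thinned to 5000 fragments. Pim2, a survival kinase, had 27.0 CPM in sham and 9.50 in stroke, a log2 ratio of -1.49, from fragments in 86 and 30 nuclei. In other nuclei it was at -0.22. Lgi2, a secreted neuronal protein, had 40.4 and 18.1 CPM (-1.15, and -0.20 in other nuclei). These genes were all close to level in the other nuclei, with log2 ratios from -0.05 to -0.35. In the Adarb2 gate, which holds far fewer fragments than the other nuclei, their log2 ratios ran from -0.61 (Iah1) to 0.54 (Creb3l3). Pim2 was at -0.10 there, Hmces at -0.47 and Otog at -0.43.

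The 10 highest were Skint5, Samsn1, Pros1, Wdr72, Daw1, Ap1m2, Ccdc192, Tdrd12, Lyn and Adamts19. Their counted loci were from 20.1 kb (Ap1m2) to 524 kb (Skint5) long, and those of the 10 lowest from 7.17 kb (Pim2) to 72.4 kb (Otog). The part of locus length in these ranks was not tested. Skint5 had 5.58 CPM in sham and 23.9 in stroke (2.08, and 1.39 in other nuclei). Samsn1 had log2 ratios of 1.46 in gated and 0.86 in other nuclei, Pros1, the gene of protein S, 1.40 and 0.71, and Lyn, a Src family kinase, 1.23 and 0.72. Of the 10, 9 were above 0 in the other nuclei too, and Ap1m2 was not (1.30 and -0.03). In the Adarb2 gate all 10 were above 0, from 0.17 (Daw1) to 1.55 (Adamts19), with Ap1m2 at 0.36. A single stroke nucleus held 20 of the 70 stroke fragments at Daw1, 20 of 138 at Wdr72, 20 of 168 at Lyn and 37 of 277 at Ccdc192. Around gene starts alone, Samsn1 (-1.22) and Adamts19 (-0.37) reversed, as did Pros1 (-0.11) when nuclei were thinned to 5000 fragments. With 1 library for each condition these are sizes in 2 libraries, and their spread between brains is unknown.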

How the data were processed

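Per the labels, nuclei were isolated from flash-frozen tissue and made into 10x Genomics single-cell ATAC libraries. The submitters' processing notes name Cell Ranger ATAC 2.1.0 and mm10. The authors deposited, for each library, the fragment list and the per-barcode counts, which are raw and not normalized. Barcodes were filtered on the deposited counts of fragments in peaks. Each deposited fragment was counted once over a locus (GENCODE release 21 gene body and 2 kb upstream), PCR copies being already merged. Levels were scaled per 1000000 fragments of the nuclei summed (CPM), and log2 ratios used 0.5 added fragments. Genes entered with at least 20 fragments in gated nuclei, found or expected from the others, 40 for stroke against sham and for the Adarb2 gate or 60 for Sst against Pvalb, and were called at 1.5-fold, which is a size and not a test. Named were the list genes and the 20 (gated over other) or 10 each way with the largest ratios, at minima of 50, 100 (stroke against sham) and 60 fragments. No deposited cell type labels were used here, and doublets were treated only by giving results without barcodes that passed a gate for other cells. Sequences came from the GRCm38 RefSeq chromosomes. The members, markers and lists were chosen with earlier results of these data known. Python 3.11.15, numpy 2.4.6, scipy 1.17.1, pandas 2.3.3 and matplotlib 3.10.9 were used, and the scripts were tested on simulated data. Alternatives covered the gate, depth, scaling, loci, minima and mixed barcodes. Some genes of the lists are counted in them but are not reported here by name.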

Additional observations from a re-analysis of the deposited data

Results flagged for a closer look

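Barcodes called as cells that failed the filter on fragments in peaks were in no comparison, and some met the gate all the same. In the sham library 15 of 1030 did (1.46%, 0.817 to 2.39), and in the stroke library 328 of 4360 (7.52%, 6.76 to 8.35). They stood out because their signal lies in data outside the main measurement. Those that met the gate had a median of 11.3% of fragments in peaks in sham and 7.74% in stroke. Their medial eminence list had 649 and 736 CPM, against 488 and 670 CPM in barcodes outside the filter that did not meet the gate, and their excitatory list 169 and 213 against 216 and 214. Gated nuclei had 679 and 662 CPM for the first list and 198 and 212 for the second. In stroke, barcodes outside the filter that did not meet the gate were thus at like levels of both lists. What these barcodes hold was not tested.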

How the results depend on the processing

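No paired analysis was possible because there was 1 library of each condition. Of 185 values of the main results under other settings, 117 stayed close and 68 moved, and of the other values 838 stayed close, 241 moved and 20 reversed. The cause was not tested for any of these except where the setting itself removes nuclei or genes. Capping markers or genes per nucleus, asking for 3 markers and weighting by percent in peaks were chosen after seeing the data.

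The gated share in sham and stroke was 8.64% and 9.11% with a score of at least 2, 4.10% and 3.79% with 4, 3.28% and 2.74% with k of at least 10 (a ratio of 0.836), 4.56% and 5.21% over all called barcodes, 4.44% and 4.54% without Nxph1, 4.56% and 4.29% without Kcnmb2, 3.14% and 2.84% thinned to 5000 fragments, 4.80% and 4.78% without mixed barcodes, 2.93% and 3.39% with at least 3 markers, and 2.91% and 3.17% with at most 3 fragments per marker.

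The 244 genes higher in gated nuclei became 154 over all called barcodes, 401 with at least 3 markers, 446 with at most 3 fragments per marker, 646 per fragments in peaks, 140 in 1 kb around gene starts, 1257 with no minimum and 135 with weighting by percent in peaks. The 194 lower became 108 with a score of at least 2, 123 without Nxph1, 355 with at least 3 markers, 442 with at most 3 fragments per marker, 51 per fragments in peaks and 453 with no minimum. Of the 16 GABA, homeobox and medial eminence genes, 11 were higher, and 3 over all called barcodes.

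The medial eminence ratio in sham was 2.16 with a score of at least 2, 2.08 without Nxph1, 1.94 thinned, 2.86 with at least 3 markers, 2.77 with at most 3 fragments per marker, 2.71 per fragments in peaks, 2.07 around gene starts, 1.52 with at most 2 fragments of a gene per nucleus and 2.03 with weighting. In stroke it was 1.46 over all called barcodes, 2.01 thinned, 2.15 with at least 3 markers, 2.22 with at most 3 fragments per marker, 2.04 per fragments in peaks, 1.74 around gene starts and 1.36 with at most 2 fragments of a gene. It stayed above 1 under each of these settings.

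Between stroke and sham, the 766 higher genes became 1538 over all called barcodes, 1356 per fragments in peaks, 1176 with cut sites in place of fragments, 277 around gene starts and 2967 with no minimum. The 795 lower became 1359 with k of at least 10, 6559 over all called barcodes, 1397 thinned, 366 per fragments in peaks, 1753 with no minimum and 322 with at most 2 fragments of a gene. The oligodendrocyte ratio was 1.15 over all called barcodes and 1.18 without mixed barcodes, a setting that itself uses these genes.

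With at least 2 fragments at Sst or Pvalb (4 and 62 nuclei), the Sst class ratio was 3.68 and the Pvalb class ratio 0.490, and with at most 2 fragments of a gene per nucleus 1.69 and 0.872. Reversed log2 values with at least 2 fragments were Gm45861 -1.12, Gnpat -1.20, Clybl -0.57, Triqk -0.10, Pdlim1 -1.63 and Wdr48 -1.91. Without mixed barcodes they were Gm45861 -1.44, AB124611 -0.22 and Pdlim1 -1.91, and with at most 2 fragments of a gene Pdlim1 -0.25. Around gene starts, Lrit3 (-1.70), Ifit3 (-0.94), Asb14 (2.69), Samsn1 (-1.22) and Adamts19 (-0.37) reversed. Creb3l3 was 0.023 with k of at least 10 and 0.0077 thinned. Thinned, Syde1 was -0.73 and Pros1 -0.11, and Syde1 was -0.10 with at most 3 fragments per marker. Depth limits the 24 Sst-positive nuclei and genes under 50 fragments.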
